A study of Mus musculus with 9 samples.

Results

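The heat shock genes of the cytosol and the mitochondrion described here are Hspa1a, Hspa1b, Hspa8, Hsph1, Dnajb1, Hspb1, Hspd1, Hspe1, Hsp90aa1 and Hsp90ab1. They were chosen by gene name, without use of their values, and are 10 of the 54532 genes listed. Of the 10, 9 reached the level required for testing and Hspa1a did not. RNA was sequenced from 9 libraries of B.END3 cells, a mouse endothelial line from brain microvessels, with the strain given as C57BL/6 in every group. Ctrl holds 3 libraries of cells that were left untreated, and Ep1 and Ep2 hold 3 libraries each of cells given photodynamic therapy (PDT). In both PDT groups, cells grown to a monolayer took up porfimer sodium, a porphyrin photosensitizer, at 300 µg/mL for 90 min and were then lit by a 635 nm laser at 100 mW/cm2. The light dose was 10 J/cm2 in Ep1 and 20 J/cm2 in Ep2. No group analysed here received only the photosensitizer or only the light, so their effects cannot be told apart, and the time between light and lysis is not given in the sources used here.

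Heat shock proteins are chaperones that bind unfolded proteins and help them fold, reassemble or be degraded. In the cytosol, Hsp70 proteins work with J-domain proteins that deliver clients and with Hsp110 proteins that exchange nucleotide, and Hsp90 proteins finish the folding of kinases and receptors. In the mitochondrial matrix, a chamber of Hsp60, encoded by Hspd1, closes with a lid of Hsp10, encoded by Hspe1. Under heat or oxidation, the transcription factor HSF1 binds arrays of alternating GAA and TTC units, called heat shock elements, near many of these genes. The comparisons address whether the transcripts of this system differed after PDT, which produces reactive oxygen species, and whether they differed between light doses.

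Values are FPKM, fragments per kilobase of gene scaled to the library total, and are relative to what each library holds. They summed to 321686 to 326679 per library in Ctrl, 320156 to 333803 in Ep1 and 304089 to 312881 in Ep2. Every Ep2 sum was thus below those of the other groups. The scaling total differed from the fragments counted on genes by 0.266% to 1.53% in Ctrl, -0.495% to -0.146% in Ep1 and 1.87% to 2.61% in Ep2. The main test applied no further scaling between libraries. Division by length lets genes be compared too, as far as the listed lengths hold and apart from sequence that genes share. Hspe1 is listed with 1474 bases and its canonical transcript has 774, while Hspd1 is listed with 2642 and its transcript has 2423. Levels and ratios between genes thus rest on the listed lengths, while a comparison of 1 gene between groups uses the same length throughout. Between 16240688 and 19509225 fragments per library were counted on genes, with group medians of 19105017 in Ctrl, 18556416 in Ep1 and 18366198 in Ep2. The spread within groups was wider than counting error allows, at 2.81 to 15.2 times the chi-square expected per degree of freedom. Nothing in the labels says that replicates were separate cultures, so p-values measure the spread between these libraries, which may be technical. Of 12 endothelial markers, 3 (Flt1, Egfl7 and Eng) reached the level for testing, Pecam1 stayed between 0.0821 and 0.242 FPKM, Cdh5 between 0.524 and 1.09, and Cldn5 was listed at 0 in 8 of 9 libraries. Of the endothelial markers, Pecam1, Cdh5 and Cldn5 were thus low or absent in cells labelled endothelial, while Flt1 was present. The summed endothelial list was 11.4 to 11.9 FPKM in Ctrl, 11.3 to 13.1 in Ep1 and 14.4 to 15.4 in Ep2, and 5 epithelial markers, Krt8, Krt18, Krt19, Epcam and Cdh1, summed to 1030 to 1080, 937 to 1040 and 1160 to 1370 FPKM. The Ep2 sum was carried by Flt1, a VEGF receptor, whose mean over Ctrl was 6.90 FPKM, over Ep1 7.25 and over Ep2 10.9 (log2 difference of Ep2 from Ctrl 0.59, limma adjusted p = 9.67e-05), while Egfl7 (1.23 to 2.46 FPKM over all libraries) and Eng (1.02 to 1.46) had estimates of -0.25 and -0.13 that were not called (adjusted p = 0.228 and 0.274). Lists for pericytes (at most 1.0 FPKM) and leukocytes (at most 0.112) were low throughout. The fibroblast list summed to 6.27 to 8.35 FPKM and was carried by Col1a1 (5.92 to 7.64). The Ctrl mean of Col1a1 was 7.215 FPKM, beside 6.90 for Flt1. The epithelial sum was carried by Krt8, Krt18 and Krt19, while Epcam was 0.607 to 2.03 FPKM and Cdh1 0.0118 to 0.103. The part of these shifts in marker levels in the results below was not tested.

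The stretches of promoter that hold heat shock elements are shown first, since they set out how the genes resemble each other apart from their levels. RefSeq promoter windows, running from 250 bases before to 50 bases after a start site on GRCm38.p6, were found for 7 of the 10 genes (10 windows), and not for Hspa8, Hsp90aa1 and Hsp90ab1. Every window was searched on both strands for a pair of units, TTCNNGAA or GAANNTTC, and for a triplet, TTCNNGAANNTTC or GAANNTTCNNGAA, where N is any base and a triplet contains 2 overlapping pairs. Of 32851 windows in the table, 15.1% held a pair and 0.603% a triplet. Hspe1 and Hspd1 lie head to head on chromosome 1, and the windows of Hspe1 and of the second Hspd1 start share 285 bases. Both therefore contain the same array of 4 units, 89 bases before the Hspe1 start, printed here 5′ to 3′ on each gene's own strand with TTC and GAA units in capitals (chr1:55088053-55088082, + for Hspe1 and - for Hspd1):
Hspe1: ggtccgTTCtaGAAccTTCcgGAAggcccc
Hspd1: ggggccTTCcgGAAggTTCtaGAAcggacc
This stretch lies inside the listed span of Hspd1 and ahead of that of Hspe1. Hsph1 had a triplet as well, 15 bases after its second listed start, in transcribed sequence (chr5:149636277-149636306, strand -):
Hsph1: tgcagaTTCtgGAAagTTCtcctcagtagg
The Hspa1a, Hspa1b and Hspb1 windows held pairs and no triplet. In the 130 bases before the start, shown with the paired units in capitals, Hspa1a (chr17:34972157-34972286, strand -) and Hspa1b (chr17:34959239-34959368, strand -) had a pair at the same place, 104 bases before the start, and Hspb1 (chr5:135887789-135887918, strand +) had 2 pairs, 117 and 97 bases before it:
Hspa1a: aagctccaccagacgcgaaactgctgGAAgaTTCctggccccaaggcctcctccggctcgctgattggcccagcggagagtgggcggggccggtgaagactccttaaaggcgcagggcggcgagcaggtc
Hspa1b: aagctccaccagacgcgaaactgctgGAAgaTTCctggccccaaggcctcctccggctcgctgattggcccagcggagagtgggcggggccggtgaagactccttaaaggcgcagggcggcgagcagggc
Hspb1: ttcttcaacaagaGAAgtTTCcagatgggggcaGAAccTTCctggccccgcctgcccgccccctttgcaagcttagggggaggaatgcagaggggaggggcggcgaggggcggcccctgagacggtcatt
Over 250 bases before the start, Hspa1a and Hspa1b were 98.8% identical, and the printed stretches differ by the single substitution T129G, with the Hspa1a base named first and positions counted from the first printed base. The windows of Dnajb1 and of the first Hspd1 start held neither motif. These matches describe the letters only and show no binding.

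**Figure D1:**
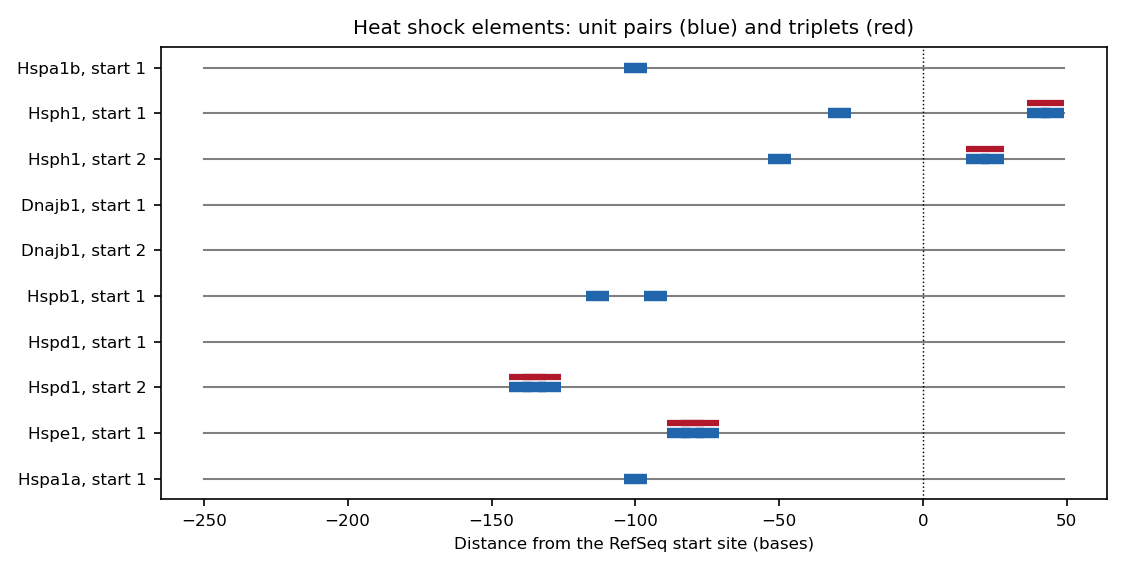
Heat shock element matches in the RefSeq promoter windows of 7 genes, plotted as the distance in bases from the start site (dotted line). Blue bars are unit pairs and red bars are triplets, which appear for Hspe1, the second Hspd1 start and both Hsph1 starts, while both Dnajb1 windows are empty.

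In Ctrl, the genes spanned levels from 0.0585 FPKM for Hspa1a to 1860 FPKM for Hsp90ab1. The order of the group means was Hsp90ab1, Hspa8, Hspd1, Hsp90aa1, Hspe1, Hspb1, Hsph1, Dnajb1, Hspa1b and Hspa1a, and it was the same in Ep1 and Ep2. No 2 neighbours in that order overlapped between libraries in Ctrl or Ep1. In Ep2, Hspe1 overlapped with Hspb1, and Dnajb1 with Hspa1b. Together the genes made up 1.09% to 1.12% of all FPKM in Ctrl, 1.13% to 1.19% in Ep1 and 0.962% to 1.12% in Ep2, so 2 Ep2 libraries lay below all Ctrl libraries and the other equalled the highest Ctrl library to the digits given.

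**Figure D2:**
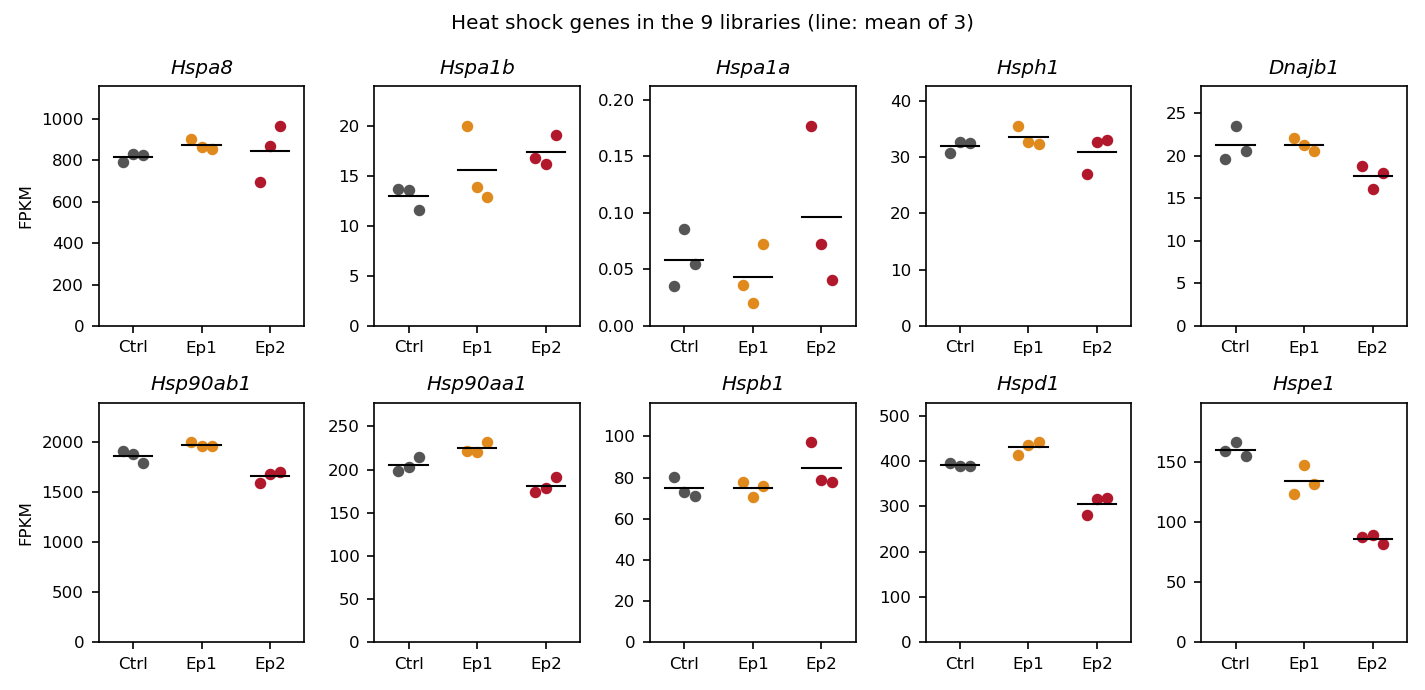
FPKM of the 10 heat shock genes in each of the 9 libraries, with a linear axis from 0 in each panel, points for libraries and a line for the mean of 3. The Ep2 points lie below all Ctrl points for Hspe1, Hspd1, Hsp90aa1, Hsp90ab1 and Dnajb1 and above all of them for Hspa1b, while Hspa1a reaches at most 0.177 FPKM.

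At 10 J/cm2, 1 of the 9 tested genes, Hspe1, was called against Ctrl, and it was lower. This call was lost in 8 of 17 alternative fits, among them no filter (limma adjusted p = 0.106) and a correction for length and GC content (0.0625). A gene was called at a limma adjusted p below 0.05 over the 11727 genes tested, of which 6.32% were called higher and 4.97% lower in Ep1 than in Ctrl. The log2 differences of the 9 genes had a median of 0.083, with 7 above 0, against -0.009 over all tested genes (0.052 for the 9 genes without Ep1 replicate 1). None was called higher by limma or by voom, while 2 (Hsp90aa1 and Hspd1) were higher at an unadjusted p below 0.05. In bulk RNA, fewer cells carrying a transcript and less of it per cell cannot be told apart. At 20 J/cm2, 5 genes fell (Hspe1, Hspd1, Dnajb1, Hsp90aa1 and Hsp90ab1) and 1 rose (Hspa1b) against Ctrl, where 29.3% of all tested genes were called lower and 23.9% higher. With each library centred on its median, 3311 genes were called higher and 2971 lower in this comparison, against 2800 and 3436 as reported, and 3028 and 3002 once gene length and GC content were corrected for. The median log2 difference was -0.165 for the 9 genes and -0.029 for all tested genes. With a fall of more than 0.6 required as well, the fold threshold of the study, only Hspe1 was left, while 5.87% of tested genes passed.

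Between the doses, Hspe1, Hspd1, Dnajb1, Hsp90aa1 and Hsp90ab1 were lower in Ep2 than in Ep1 and none of the 9 was higher in limma (0 at an unadjusted p below 0.05, and 1, Hspb1, by voom), whereas 25.2% of all tested genes were called lower and 18.8% higher. The median was -0.249 for the 9 genes and -0.015 for all tested genes, and Hspe1 alone fell by more than 0.6, as did 3.97% of tested genes. Over all genes, the split of this comparison depended on scaling, with 2206 higher and 2950 lower as reported and 2974 higher and 2383 lower once each library was centred on its median. In Ep1 against Ctrl, 741 were higher and 583 lower, against 923 and 1096 with voom on recovered fragments. The comparisons with Ctrl share the Ctrl libraries, and both comparisons of Ep2 share the Ep2 libraries.

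**Figure D3:**
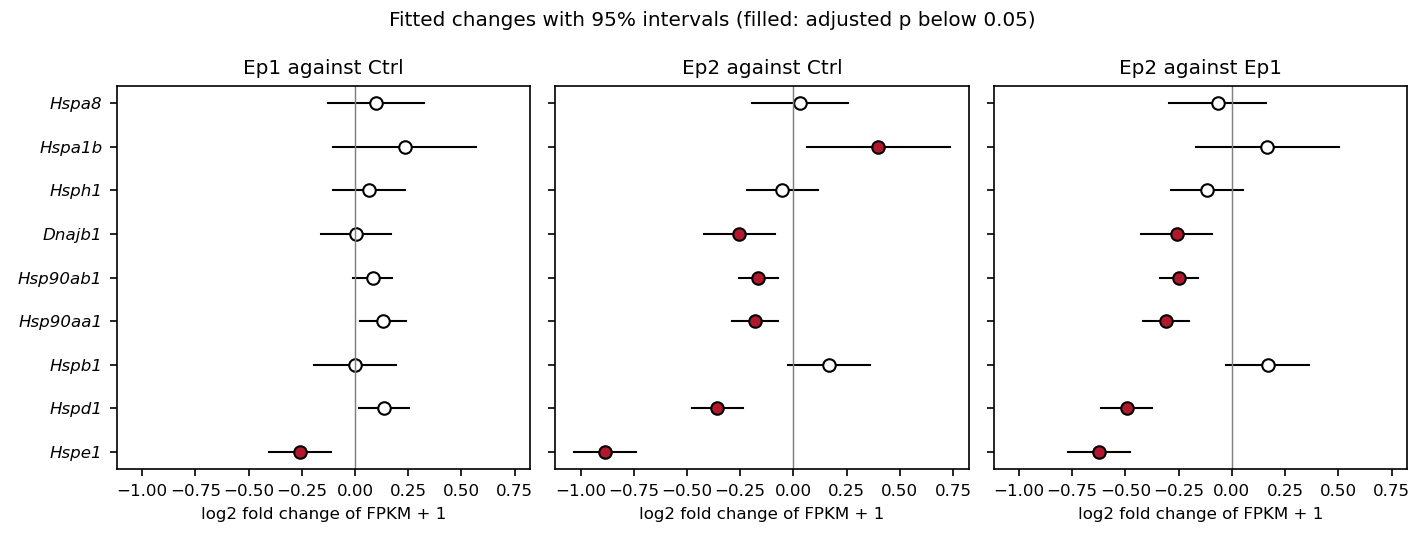
Log2 fold change of FPKM + 1 for the 9 tested genes in the 3 comparisons, as points with 95% intervals, filled where the limma adjusted p is below 0.05. Hspe1 is lowest in every panel, at -0.26, -0.88 and -0.63.

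In the mitochondrial chaperonin pair, both genes fell in Ep2. Hspe1 (ENSMUSG00000073676, chr1:55088132-55091307, strand +) encodes the Hsp10 lid. It measured 159, 166 and 155 FPKM in Ctrl, 123, 147 and 132 in Ep1, and 87.5, 89.3 and 82.2 in Ep2. All Ep1 libraries lay below all Ctrl libraries, and all Ep2 libraries lay below all Ep1 libraries. The means were 160.2 ± 5.58, 134.1 ± 12.2 and 86.3 ± 3.67 FPKM (SD, n = 3 each), over 2013 to 4795 fragments per library. Hspe1 in Ep2 was 0.542 times its Ctrl level (log2 difference -0.88, SE 0.065, 95% interval -1.03 to -0.74, limma adjusted p = 9.66e-06). It was 0.648 times its Ep1 level (log2 difference -0.63, adjusted p = 8.47e-05). In Ep1 it was 0.836 times its Ctrl level (log2 difference -0.26, SE 0.065, adjusted p = 0.0358). This smaller difference was not called without Ctrl replicate 1 (adjusted p = 0.0980), 2 (0.137) or 3 (0.0549), without Ep1 replicate 1 (0.106) or 3 (0.114), or without Ep2 replicate 2 (0.0521), while its estimate stayed between -0.28 and -0.20 in those fits.

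Hspd1 (ENSMUSG00000025980, chr1:55077835-55088243, strand -) encodes the Hsp60 subunit of the chamber. It measured 395, 389 and 389 FPKM in Ctrl, 414, 436 and 441 in Ep1, and 280.2, 317 and 319 in Ep2. The Ep1 libraries were all above and the Ep2 libraries all below the Ctrl libraries. The means were 391 ± 3.25, 430 ± 14.4 and 305 ± 21.9 FPKM (SD, n = 3 each). Hspd1 fell to 0.780 times its Ctrl level in Ep2 (log2 difference -0.36, SE 0.053, limma adjusted p = 0.000425) and was 0.710 times its Ep1 level (-0.49, adjusted p = 0.000108). The Ep1 difference of 0.14 (95% interval 0.02 to 0.26) did not pass over all genes (adjusted p = 0.124), although it did without Ep2 replicate 1 (adjusted p = 0.0269). The listed spans of Hspd1 and Hspe1 share 112 bases, and whether counting used strand is not stated.

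The ratio of Hspe1 to Hspd1 FPKM differed between Ctrl and both doses without overlap. It was 0.403, 0.427 and 0.399 in Ctrl, 0.298, 0.338 and 0.299 in Ep1, and 0.312, 0.282 and 0.258 in Ep2. Both treated groups were below every Ctrl library and overlapped each other. The log2 ratio was lower by 0.397 in Ep1 and by 0.533 in Ep2 than in Ctrl, each with p = 0.1 in a two-sided exact permutation test, the smallest p that 3 against 3 libraries allow. Between Ep2 and Ep1 the difference was -0.137 (p = 0.3, exact permutation test). With 5 ratios tested in 3 comparisons, none could pass a correction at this n. In Ep1 the lower ratio went with a lower Hspe1 and Hspd1 values above Ctrl, and in Ep2 both genes were lower.

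**Figure D4:**
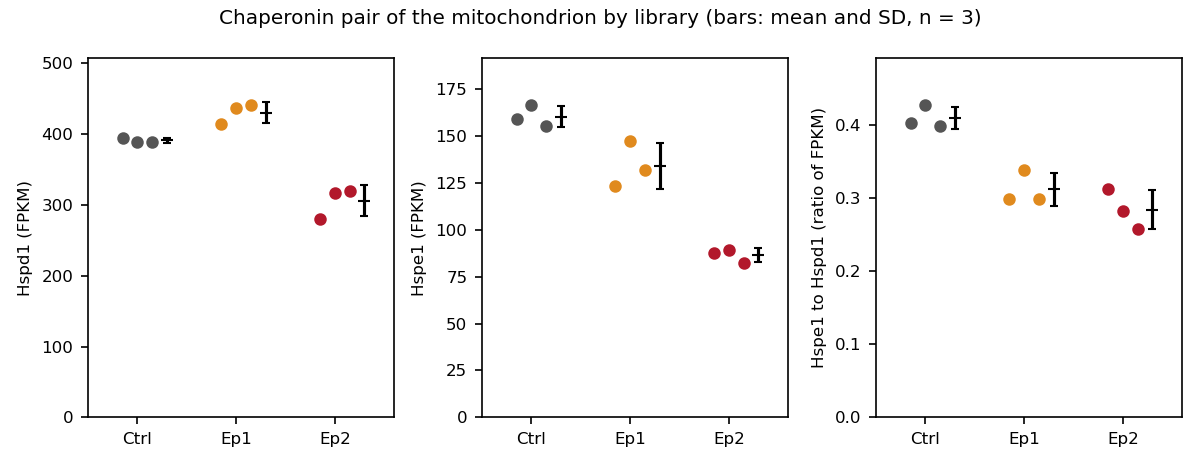
Hspd1 in FPKM (left), Hspe1 in FPKM (middle) and the ratio of Hspe1 to Hspd1 (right) in each library, on linear axes from 0, with bars for the mean and SD of 3 libraries. Hspd1 is above Ctrl in Ep1 and below it in Ep2, while Hspe1 and the ratio are below Ctrl at both doses.

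The Hsp90 genes of the cytosol were lower in Ep2 than in the other groups by small amounts. Hsp90ab1 (ENSMUSG00000023944, chr17:45567775-45573271, strand -) encodes the constitutive Hsp90 beta. It measured 1910.4, 1880.2 and 1784 FPKM in Ctrl, 1992, 1953 and 1959 in Ep1, and 1592, 1681 and 1698 in Ep2. All Ep2 libraries were below all others, and all Ep1 libraries were above all Ctrl libraries. Hsp90ab1 fell to 0.892 times Ctrl in Ep2 (log2 difference -0.17, SE 0.040, limma adjusted p = 0.00689) and was 0.842 times its Ep1 level (-0.25, adjusted p = 0.00103), while the Ep1 difference of 0.08 did not pass (adjusted p = 0.203). With a correction for gene length and GC content the Ep2 difference against Ctrl was -0.09 and was not called (adjusted p = 0.0813).

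Hsp90aa1 (ENSMUSG00000021270, chr12:110690605-110702728, strand -) encodes the inducible Hsp90 alpha. It measured 198, 203 and 214 FPKM in Ctrl, 221, 221 and 231 in Ep1, and 173, 178 and 191 in Ep2, so the 3 groups did not overlap. It fell to 0.883 times Ctrl in Ep2 (log2 difference -0.18, SE 0.048, limma adjusted p = 0.0110) and was 0.807 times its Ep1 level (-0.31, adjusted p = 0.00081). The Ep1 difference of 0.13 did not pass (adjusted p = 0.109). The ratio of Hsp90aa1 to Hsp90ab1 had means of 0.111 ± 0.00849, 0.114 ± 0.00361 and 0.109 ± 0.00326 for Ctrl, Ep1 and Ep2 (SD over 3 libraries), and the groups overlapped (exact permutation p = 0.5 for Ep1 and 0.9 for Ep2 against Ctrl).

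Of the 3 Hsp70 genes of the cytosol, Hspa1b was called higher in Ep2, Hspa8 was not called at either dose, and Hspa1a was too low to test. Hspa8 (ENSMUSG00000015656, chr9:40800984-40810087, strand +) encodes Hsc70, the constitutive Hsp70 that also uncoats clathrin vesicles. It measured 794, 832 and 826 FPKM in Ctrl, 905, 866 and 854 in Ep1, and 695, 868 and 966 in Ep2. The Ep2 libraries spanned the whole range of the other groups, with replicate 1 lowest of all 9 and replicate 3 highest. Neither Ep1 (log2 difference 0.10, adjusted p = 0.554) nor Ep2 (0.03, 95% interval -0.20 to 0.26, adjusted p = 0.816) differed from Ctrl in limma. Without Ep2 replicate 1 the Ep2 difference was 0.16 (adjusted p = 0.0260), and without Ep2 replicate 3 it was -0.07 (adjusted p = 0.486).

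Hspa1b (ENSMUSG00000090877, chr17:34956436-34959238, strand -) encodes the stress-inducible Hsp70. It measured 13.7, 13.6 and 11.5 FPKM in Ctrl, 20.0, 13.9 and 12.9 in Ep1, and 16.8, 16.2 and 19.1 in Ep2, over 601 to 1035 fragments. The Ep2 libraries were all above the Ctrl libraries, and Ep1 replicate 1 was above all others. Hspa1b rose to 1.32 times Ctrl in Ep2 (log2 difference 0.40, SE 0.15, 95% interval 0.06 to 0.73, limma adjusted p = 0.0475). The Ep1 difference of 0.23 (adjusted p = 0.329) and that between doses of 0.17 (adjusted p = 0.391) did not pass, the latter reaching 0.35 (adjusted p = 0.0176) without Ep1 replicate 1. The rise in Ep2 was not called with any of 7 libraries left out. These were Ctrl replicate 1 (adjusted p = 0.0701), 2 (0.0760) or 3 (0.133), Ep1 replicate 2 (0.0557), and Ep2 replicate 1 (0.0924), 2 (0.0670) or 3 (0.147).

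Hspa1a (ENSMUSG00000091971, chr17:34969190-34972156, strand -), the neighbour of Hspa1b that encodes the same inducible Hsp70, was nearly without fragments. It had 2, 5 and 3 fragments in Ctrl, 2, 1 and 4 in Ep1, and 10, 4 and 2 in Ep2, which corresponds to 0.0201 to 0.177 FPKM. The group sums were 10 fragments in Ctrl (95% exact Poisson interval 4.80 to 18.4), 7 in Ep1 (2.81 to 14.4) and 16 in Ep2 (9.15 to 26.0), intervals that cover counting error only and overlap. Of the 150-base windows of its transcript, 45.95% also occur in other genes, mostly in Hspa1b, and 40.47% of the Hspa1b windows occur in Hspa1a. Reads from these windows could be assigned to either gene or dropped, so the levels of both are uncertain. With both genes summed, the Ep2 difference against Ctrl was 0.40 (limma adjusted p = 0.0455).

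Dnajb1 and Hsph1 encode partners of Hsp70. Dnajb1 (ENSMUSG00000005483, chr8:83608193-83612653, strand +), the J-domain protein Hsp40, measured 19.6, 23.5 and 20.6 FPKM in Ctrl, 22.1, 21.3 and 20.5 in Ep1, and 18.8, 16.2 and 18.0 in Ep2. All Ep2 libraries were below all others, and Ctrl and Ep1 overlapped. Dnajb1 fell to 0.839 times Ctrl in Ep2 (log2 difference -0.25, SE 0.074, limma adjusted p = 0.0163) and was 0.836 times its Ep1 level (-0.26, adjusted p = 0.0184). The fall against Ctrl was not called without Ctrl replicate 2 (adjusted p = 0.0593) or Ep2 replicate 2 (0.0603), or when length and GC content were corrected for, where the difference was -0.15 (0.105). That against Ep1 was not called without Ep1 replicate 1 (0.0595) or Ep2 replicate 2 (0.0646), with no filter (0.0542), with median centring (0.0514) or when length and GC content were corrected for (0.0503). In Ep1 the difference from Ctrl was 0.00 (adjusted p = 0.972).

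Hsph1 (ENSMUSG00000029657, chr5:149614287-149636376, strand -), the Hsp110 exchange factor, measured 30.7, 32.7 and 32.5 FPKM in Ctrl, 35.5, 32.7 and 32.2 in Ep1, and 27.1, 32.6 and 33.0 in Ep2. The groups overlapped, and Ep2 replicate 1 was the lowest library, as it was for Hspa8. The log2 differences from Ctrl were 0.06 in Ep1 (adjusted p = 0.605) and -0.05 in Ep2 (95% interval -0.22 to 0.12, adjusted p = 0.590). Its transcript shares no 150-base window with another gene, nor does that of Dnajb1. Relative to Hspa8, Hsph1 was 0.0391 ± 0.000399, 0.0382 ± 0.000836 and 0.0369 ± 0.00246 (SD over 3 libraries) for Ctrl, Ep1 and Ep2, with overlapping groups (exact permutation p = 0.2 for each dose against Ctrl). The ratio of Hspa1b to Hspa8 was 0.0187 to 0.0242 in Ep2 and 0.0140 to 0.0173 in Ctrl, and that of Dnajb1 to Hspa8 was 0.0241 to 0.0245 in Ep1 and 0.0247 to 0.0283 in Ctrl, both without overlap (exact permutation p = 0.1 each, the smallest possible). In the other comparisons of these ratios the groups overlapped (exact permutation p = 0.3 to 0.6).

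Hspb1 (ENSMUSG00000004951, chr5:135887919-135889563, strand +) encodes Hsp25, a small heat shock protein that holds unfolded proteins in solution without ATP. It measured 80.5, 73.0 and 71.2 FPKM in Ctrl, 78.0, 70.7 and 75.9 in Ep1, and 97.1, 78.8 and 77.8 in Ep2. Ep2 replicate 1 stood above the other 8 libraries, and the other Ep2 libraries lay within the Ctrl range. The log2 differences from Ctrl were 0.00 in Ep1 (adjusted p = 0.996) and 0.17 in Ep2 (95% interval -0.03 to 0.36, adjusted p = 0.131). With a correction for length and GC content the Ep2 difference was 0.37 (adjusted p = 0.00243). Of its 150-base windows, 52.54% also occur in other genes, all of these in the pseudogene Hsp25-ps1, and shared windows made up 55.37% in Hspa8, 33.51% in Hsp90aa1, 18.56% in Hspd1, 14.08% in Hspe1 and 1.88% in Hsp90ab1.

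The other chaperones of the cytosol and the mitochondrion were described by 9 lists that share some genes, holding 92 genes of which 85 were tested. In Ep1 against Ctrl, 8 were higher and 4 lower, with a median log2 difference of 0.013. In Ep2, 15 were higher and 35 lower, with a median of -0.084, and against Ep1 9 were higher and 38 lower, with a median of -0.122. The shares of all tested genes given above are the background for these counts. Dnajb14 and Hspa13, counted here, encode proteins of the endoplasmic reticulum, and without them 13 of 83 genes were higher and 35 lower in Ep2 against Ctrl, with a median of -0.092, a count made after their values were seen. Of the 12 calls in Ep1, that of Hspa12b held with each library left out, and the other 11 were lost without Ctrl replicate 2 (adjusted p = 0.0522 to 0.159). Without that library, calls over all tested genes numbered 115 higher and 78 lower, against 741 and 583 as reported. In Ep2 against Ctrl, the calls of Bag3, Bag6, Clpb, Hspa2, Hspa9 and Hspa13 were lost in 3 to 8 of 9 such fits (adjusted p up to 0.137). The other calls of that comparison held in all 9. Against Ep1, the calls of Hspb9 (6 fits), Ubb (3), Yme1l1 (3), Chordc1 (1), Dnaja4 (1) and Fkbp5 (1) were lost (adjusted p up to 0.113). Genes named here other than the one with the smallest adjusted p of its list were chosen after their values were seen.

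Lists of mitochondrial proteases and of the cytosolic chaperonin held more lower than higher genes in Ep2. Of 11 mitochondrial protease and import genes, 5 fell against Ctrl (Htra2, Clpp, Timm44, Spg7 and Clpb) and 2 rose (Atf5 and Yme1l1), with a median of -0.162 (-0.090 without Ep2 replicate 3). Htra2, a serine protease of the intermembrane space, went from 18.7 to 19.1 FPKM in Ctrl to 6.78 to 7.52 in Ep2 (log2 difference -1.30, limma adjusted p = 1.47e-06). Clpp, the matrix protease that degrades unfolded proteins, was lower in Ep1 as well (-0.26, adjusted p = 0.00989, and -0.81 in Ep2, adjusted p = 2.48e-06). Atf5, a transcription factor of the mitochondrial stress response, went the other way, from 30.6 to 34.7 FPKM in Ctrl to 58.8 to 61.7 in Ep2 (0.86, adjusted p = 1.49e-05). Of 14 subunits of the CCT chaperonin, which folds actin and tubulin, and of prefoldin, which delivers them, 9 fell and Vbp1 rose in Ep2 (median -0.209). Cct3 had the smallest adjusted p (-0.59, adjusted p = 5.91e-06), and in Ep1 Vbp1 (0.40, adjusted p = 0.0319) and Pfdn4 (0.38) were higher.

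The partners of Hsp90 and Hsp70 were divided. Of 15 genes listed as Hsp90 co-chaperones, among them Trap1, which encodes the mitochondrial Hsp90 itself, 7 fell in Ep2, Trap1 included (-0.64), and 2 rose, Ptges3 and Tomm34. The median was -0.101, and -0.167 without Ep2 replicate 1. Fkbp4, an immunophilin of steroid receptor complexes, went from 107 to 115 FPKM in Ctrl to 52.0 to 58.5 in Ep2 (log2 difference -0.96, limma adjusted p = 3.40e-06), and Ptges3, the co-chaperone p23, was higher in Ep1 (0.25, adjusted p = 0.0105). Of 11 Hsp70 exchange factors and regulators, 5 fell (Hspbp1, Stub1, Grpel1, Bag1 and Bag6) and Bag3 rose in Ep2, with a median of -0.14, and none passed limma in Ep1, where 2 (Bag3 and Bag4) were higher at an unadjusted p below 0.05, 1 was called by voom, and Bag3 had the smallest adjusted p (0.19, adjusted p = 0.0575). Hspbp1 gave the smallest adjusted p in Ep2 (-0.72, adjusted p = 2.09e-05). Of 16 other J-domain genes, 4 fell (Dnajc9, Dnaja4, Dnajc2 and Dnajc19) and 4 rose (Dnajb14, Dnajb6, Dnajc21 and Dnajc5) in Ep2, led by Dnajc9, a histone chaperone (-0.90, adjusted p = 2.02e-05). In Ep1, Dnaja2 (0.15, adjusted p = 0.0274) and Dnaja1 (0.18) were higher.

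The other Hsp70 and small heat shock genes went both ways. Of 7 tested Hsp70 and Hsp110 genes, 4 rose in Ep2 (Hspa4l, Hspa2, Hspa13 and Hspa9) and 2 fell (Hspa12b and Hspa14), with a median of 0.119. Hspa12b went from 8.67 to 9.37 FPKM in Ctrl to 6.43 to 6.89 in Ep1 and 6.11 to 6.58 in Ep2 (log2 differences -0.39 and -0.45, limma adjusted p = 0.00657 and 0.000100). Hspa9, the matrix Hsp70 that pulls in imported proteins, was 212 to 218 FPKM in Ctrl, 249 to 255 in Ep1 and 226 to 245 in Ep2 (0.22 and 0.12). It was higher where its fellow matrix chaperone gene Hspe1 was lower, while Hspd1 was above Ctrl in Ep1 and below it in Ep2. With 1 library left out, the Hspa9 call was lost in 2 of 9 fits for Ep1 and 3 of 9 for Ep2. Of 4 tested small heat shock genes, Hspb8 rose at both doses (0.24, adjusted p = 0.0212, and 0.48, adjusted p = 6.47e-05) and Hspb6 fell in Ep2 (-0.40), with a median of 0.005. Among 4 tested heat shock factors and regulators, Hsf1, which encodes HSF1 itself, fell in Ep2 (-0.31, adjusted p = 0.000531) and Hsbp1 was lower in Ep1 (-0.18, adjusted p = 0.0436). Of 14 further genes known as HSF1 targets, drawn in part from the lists above, 3 rose (Hspa4l, Hspb8 and Bag3) and 5 fell (Fkbp4, Ahsa1, Cacybp, Dnaja4 and Chordc1) in Ep2, with a median of -0.071, and in Ep1 Hspb8 and Dnaja1 were higher.

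In the endoplasmic reticulum, whose chaperones answer to another stress pathway, 7 of 12 genes rose in Ep2 against Ctrl and none fell, by limma, by voom or at an unadjusted p below 0.05, with a median log2 difference of 0.447. Ep2 replicate 1 was the highest of the Ep2 libraries for most of these genes, with 88.9 FPKM against 53.6 and 49.9 for Hyou1 and 454 against 291 and 297 for Calr, and without it the median was 0.250, with 9 genes called higher and 1 lower. Over all tested genes, that fit called 2910 higher and 3532 lower. Pdia3, a disulfide isomerase, had the smallest adjusted p (0.33, limma adjusted p = 0.000178), and Hspa5, the Hsp70 of that compartment, was 283 to 301 FPKM in Ctrl and 648, 375 and 366 in Ep2 replicates 1, 2 and 3 (0.61, adjusted p = 0.0305, and not called without Ctrl replicate 1, 2 or 3, at 0.0747, 0.0705 and 0.0518). In Ep1, 1 rose, the J-domain gene Dnajb9 (0.68, adjusted p = 0.0270, and not called without Ctrl replicate 1 or 2 or Ep1 replicate 1 or 3). Of all tested genes, 23.9% were called higher in Ep2 against Ctrl, 6.32% in Ep1 against Ctrl and 18.8% in Ep2 against Ep1. In Ep2 against Ep1, 4 rose (Dnajc3, Hsp90b1, Pdia3 and Pdia6), with a median of 0.325 (0.140 without Ep2 replicate 1). Hsp90b1 was not called there without Ep1 replicate 2 (limma adjusted p = 0.067) or 3 (0.0632). The heat shock genes had medians of -0.165 and -0.249 in the same comparisons with Ctrl and Ep1 (-0.137 and -0.220 without Ep2 replicate 1), and the difference between the groups of genes was not tested.

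**Figure D5:**
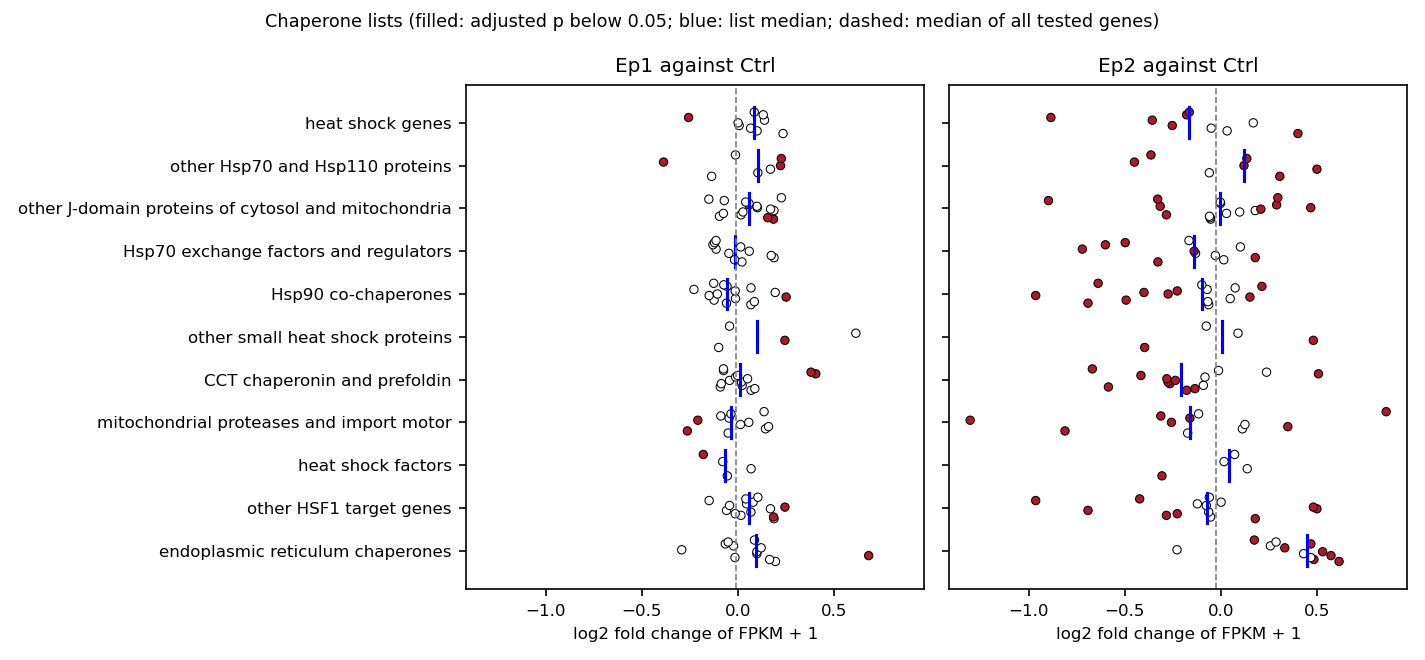
Log2 fold change of FPKM + 1 for each tested gene of the chaperone lists in Ep1 (left) and Ep2 (right) against Ctrl, filled where the limma adjusted p is below 0.05, with blue list medians and a dashed line at the median of all tested genes. In Ep2 the heat shock genes have a median of -0.165 and the endoplasmic reticulum chaperones one of 0.447, or 0.250 without Ep2 replicate 1.

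The genes whose profiles were most like those of the heat shock genes were found by the root mean square difference of centred log2(FPKM + 1) over the 9 libraries, as a description. Hspe1 was closest to Echdc2 (0.0476), with means of 9.85, 8.15 and 5.16 FPKM for Ctrl, Ep1 and Ep2, and 1700 genes outside the 10 were nearer to it than the nearest heat shock gene, Hspd1. Hspd1 was closest to Akap8 (0.0286), with 52.0, 56.6 and 41.3 FPKM. Both Hsp90 genes had each other as the nearest heat shock gene (0.0646), and were closest of all to Xrn2 for Hsp90aa1 (0.0246) and Psme3 for Hsp90ab1 (0.0267). Hspa8 and Hsph1 likewise had each other as the nearest heat shock gene (0.0605), with Foxk2 (0.0418) and Ano10 (0.0295) closer still. Many more genes outside the 10 were nearer than the nearest heat shock gene. They numbered 29 for Hspa8, 63 for Hsph1, 142 for Hsp90aa1, 281 for Hsp90ab1 and 420 for Hspd1. For the others the closest genes were Otud1 for Hspa1b (0.0977), Mettl3 for Dnajb1 (0.0566) and Poli for Hspb1 (0.0343). The genes nearer than the nearest heat shock gene numbered 2267 for Hspa1b, 468 for Dnajb1 and 6451 for Hspb1.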

How the data were processed

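Paired-end RNA sequencing of 9 libraries was analysed. The authors aligned the reads and deposited FPKM for each gene, with gene lengths. The methods name GRCm39, and the submitters' processing notes list mm8 and Bowtie 0.12.2. Listed positions overlapped GRCm38 for 99.9% and GRCm39 for 12.4% of 36413 genes, so positions are GRCm38. Single and joint tables held equal values. FPKM times length gave fragments, within 2.47e-05 of whole numbers. The protocol text calls the line rat, while the organism label is mouse.

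Genes that reached an FPKM of 1 in 3 or more libraries entered the test on log2(FPKM + 1), which understates changes of low genes, in 1 limma model of the 9 libraries (eBayes with a variance trend, robust), with Benjamini-Hochberg adjustment over 11727 genes per comparison. The test was tried on simulated data. Genes were named as all 10 heat shock genes, for each list the gene with the smallest adjusted p in Ep1 and in Ep2 against Ctrl, and the nearest profile of each heat shock gene. The 10 heat shock genes were chosen by name, as stated at the start. The other lists, the genes in them and the tests were chosen with earlier results of these data known. Alternatives were a pseudocount of 0.1, no filter, a minimum of 5 FPKM, median centring, a replicate block, only the groups compared, voom on recovered fragments, Hspa1a and Hspa1b summed, omission of each library and, chosen after seeing the data, a correction for gene length and GC content (11599 genes). The labels give no batch. Software versions were limma 3.58.1 in R 4.3.3, and pandas 2.3.3, numpy 2.4.6, matplotlib 3.10.9 and scipy 1.17.1 in Python 3.11.15.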

Additional observations from a re-analysis of the deposited data

How the results depend on the processing

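Over the 9 tested genes, 3 comparisons and all alternatives, 416 of 462 values kept their direction and their side of the threshold, 26 lost a call, 9 gained one and 11 changed sign. The calls of Hspe1, Hspd1 and Hsp90aa1 in Ep2 against Ctrl, and of these and Hsp90ab1 in Ep2 against Ep1, held in every alternative run. Heat shock genes called with 1 library left out numbered 0 to 1 higher and 0 to 1 lower in Ep1 against Ctrl, 0 to 1 higher and 4 to 5 lower in Ep2 against Ctrl, and 0 to 1 higher and 4 to 5 lower in Ep2 against Ep1. Over all tested genes, these fits called 111 to 1183 higher and 78 to 1000 lower in Ep1 against Ctrl. As reported, the counts were 741 and 583. They called 2357 to 2910 higher and 2999 to 3532 lower in Ep2 against Ctrl, and 1673 to 2231 and 2411 to 2996 against Ep1. In Ep1 against Ctrl, 1 heat shock gene was higher with only the 2 groups compared (Hspd1), and 0 were lower with no filter or the correction for length and GC content. In Ep2 against Ctrl, 0 heat shock genes were higher with no filter, where 2729 of all 26717 genes were. The correction gave 2 higher and 3 lower, beside 3028 and 3002 over all 11599 genes. In Ep2 against Ep1, 1 heat shock gene was higher with the replicate block, voom or the correction, where 2115, 2750 and 2663 of all tested genes were. Genes of the other lists called in Ep1 against Ctrl, 8 higher and 4 lower as reported, numbered 2 and 2 with no filter, 4 and 2 with the correction, 7 lower with only the 2 groups compared or voom, and 0 to 10 higher and 1 to 5 lower with 1 library left out. Over all genes, this comparison gave 242 higher and 154 lower with no filter, and 532 and 358 with the correction. It gave 1153 and 1009 with only the 2 groups compared, and 923 and 1096 with voom.

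The estimates that changed sign were not called as reported. Dnajb1 in Ep1 against Ctrl was -0.0039 with median centring, -0.012 with voom and -0.047 to 0.077 with 1 library left out, and Hspb1 was 0.12 with the correction and -0.035 to 0.052 with 1 library left out. With 1 library left out, Hspa8 in Ep2 ranged from -0.074 to 0.16 against Ctrl, where it was called without Ep2 replicate 1, and from -0.17 to 0.066 against Ep1, and Hsph1 in Ep2 from -0.10 to 0.038 against Ctrl. The cause of these differences was not tested.

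Same-numbered libraries did not deviate together (correlations of -0.0565 to 0.0744, against -0.108 to 0.153 for differently numbered ones). This gave no sign that the replicate numbers pair the samples. It cannot show that they were unpaired, and the labels do not say. With the replicate block, Hspa1b in Ep2 against Ctrl was not called (adjusted p = 0.0512), Hspb1 was called higher in Ep2 against Ctrl (0.0382) and Ep1 (0.0449), and no other call of the heat shock genes changed. Hspa1a had 1 to 10 fragments per library, and the part of depth and of shared sequence in this low count was not tested. For the tested heat shock genes the spread between libraries sets the precision.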
